A study of Mus musculus with 24 samples.

Results

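Replication-dependent histone genes supply the core histones H2A, H2B, H3 and H4, and the linker histone H1, to newly copied DNA. They are described here across 4 stages of mouse male germ cells, in steady-state total RNA and in newly made (nascent) RNA. The genes were chosen by name: every row whose symbol starts with Hist1h, Hist2h, Hist3h or Hist4h was kept, except Hist1h1t and Hist1h2ba. This gave 66 of the 52323 rows of the deposited tables, of which 5 belong to H1, 19 to H2A, 18 to H2B, 11 to H3 and 13 to H4. Many of the copies are nearly identical in their coding sequence, and 3 rows join the names of 2 copies each, so the split of reads between copies is uncertain and class sums are given beside single rows.

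These histone genes lack introns for the most part, and their mRNAs are the only known animal mRNAs that end in a conserved stem-loop in place of a poly(A) tail. The stem-loop-binding protein SLBP holds that end, the U7 small nuclear RNP with Lsm10 and Lsm11 directs the cut that makes it, and NPAT activates the genes at the start of S phase. Histone mRNA rises in S phase and is degraded when DNA synthesis stops. In spermatogenesis, spermatogonia divide by mitosis, preleptotene spermatocytes carry out the last round of DNA synthesis, and leptotene and pachytene spermatocytes are in meiotic prophase, after that synthesis.

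The cells came from testes of wild-type NMRI mice, an outbred strain, in which spermatogenesis had been synchronised with WIN18,446 and retinoic acid, and which had received the uridine analogue 5-ethynyluridine (EU) 24 days after birth. All groups share this treatment. Cells were sorted by DNA content into spermatogonia (3 libraries per RNA type), preleptotene (1 library), leptotene (4) and pachytene (4) spermatocytes, 12 libraries of total RNA and 12 of EU-labelled nascent RNA in all. By the labels, the total RNA came from 4 animals and the nascent RNA from 4 others, so that libraries of a stage can share an animal. In each RNA type there are 2 animals for spermatogonia, 1 for preleptotene, 3 for leptotene and 2 for pachytene. Values are FPKM, fragments scaled to gene length and library size, which can be compared between genes.

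Depth, read from the steps between low values, was about 7070000 to 15800000 fragments per total RNA library and 5070000 to 10100000 fragments per nascent library. This holds only if the commonest low step is 1 fragment, and 29.3 to 37.7% of low values lay near a whole step. Leptotene library 2 stood apart from the other leptotene libraries in both RNA types. Its 8 pachytene marker genes summed to 1644 FPKM in total RNA, against 73.5 to 105 FPKM in the other leptotene libraries and 1909 to 2325 FPKM in pachytene libraries. In nascent RNA the same sum was 369 FPKM in leptotene library 2 and 20.2 to 45.5 FPKM in the other leptotene libraries. The main counts over all rows and the class sums that use leptotene are therefore given with and without it, and so are the values of the genes that it bears on most. Other counts that use leptotene include it. Somatic marker genes also differed between stages: peritubular markers (3 genes) summed to 133 to 316 FPKM in spermatogonia, 0.801 to 7.45 FPKM in leptotene and 0.0751 to 0.522 FPKM in pachytene libraries of total RNA. Sertoli markers (6 genes) summed to 88.4 to 119 FPKM in spermatogonia, 4.60 to 14.9 FPKM in leptotene and 1.52 to 2.47 FPKM in pachytene cells. Their part in the comparisons with spermatogonia was not tested.

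The stem-loop at the 3′ end is the sequence that marks these genes, so it was searched for in the GENCODE M21 transcripts of all 67 gene symbols behind the 66 rows. A histone 3′ stem-loop was found in 44 of 67 symbols (65.7%), and in 42 of the 46 symbols (91.3%) with at least 60 annotated bases after the stop codon, against 395 of 58729 other protein-coding transcripts (0.673%). By class it was found in 3 of 5 H1, 11 of 20 H2A, 10 of 18 H2B, 8 of 11 H3 and 12 of 13 H4 symbols. The 5 sites below, with 5 flanking bases on each side, are shown because their genes went different ways in the data, and capitals mark the stem and loop.
Hist1h1c: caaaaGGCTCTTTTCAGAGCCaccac
Hist1h2bm: acaaaGGCTCTTTTCAGAGCCactaa
Hist1h4f: tcaaaGGCCCTTTTCAGGGCCaccca
Hist1h4h: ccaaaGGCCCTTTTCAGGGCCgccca
Hist2h2ac: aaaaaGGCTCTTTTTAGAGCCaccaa
The linker histone gene Hist1h1c and the core histone gene Hist1h2bm have the same 16 letters, and so do the H4 genes Hist1h4f and Hist1h4h. No match was found in the 2620-base transcript of Hist2h2be, in Hist1h2al or in Hist3h2bb-ps, of which the last pair are annotated as processed pseudogenes. The annotated transcripts of Hist1h1a, Hist2h2ab and Hist1h4k end within 48 bases of the stop codon, so their 3′ ends were searched only that far.

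Summed over all 66 rows, histone mRNA took a larger share of the total RNA FPKM in spermatogonia, preleptotene and leptotene cells than in pachytene cells. The sum was 7467, 10040 and 10935 FPKM in the spermatogonial libraries, 12932 FPKM in the preleptotene library, 13697, 2264.8, 23312 and 9583.8 FPKM in leptotene libraries 1 to 4, and 972, 1734, 1605 and 1557 FPKM in the pachytene libraries. Each pachytene library was below each library of the other stages, and leptotene library 2 was the nearest to them. As a share of all FPKM outside the spike-in RNAs, histones made up 2.40 to 3.27% in spermatogonia, 3.78% in preleptotene, 0.773 to 5.52% in leptotene (2.83 to 5.52% without library 2) and 0.367 to 0.589% in pachytene cells. In RNA from sorted populations, fewer cells that make a transcript and less of it per cell cannot be told apart.

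**Figure D1:**
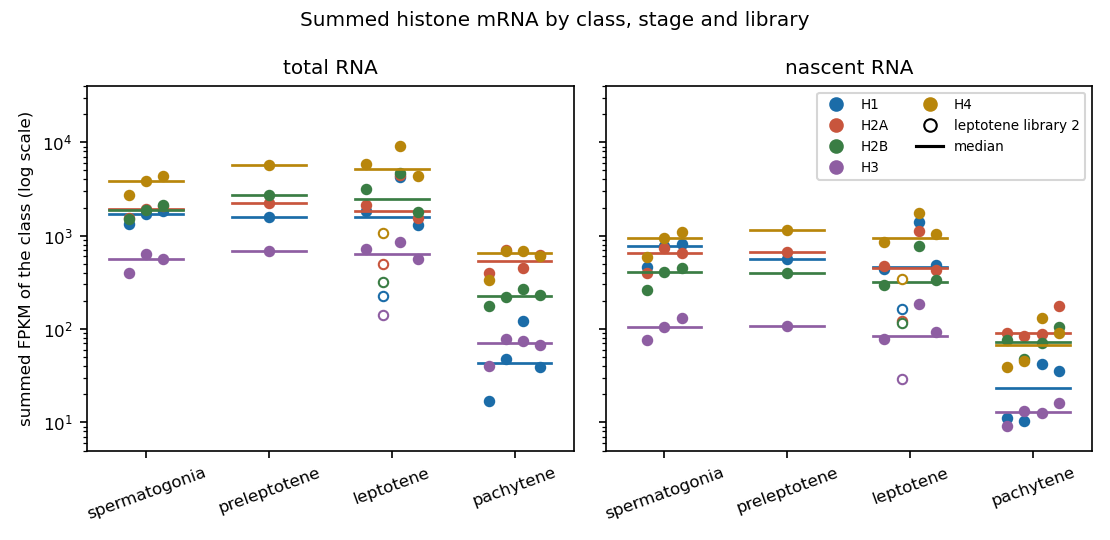
Summed FPKM of each histone class (log axis) by stage in total RNA on the left and nascent RNA on the right; each point is a library, open points are leptotene library 2 and lines are stage medians. The summed H1 rows reach 16.9 to 121 FPKM in pachytene total RNA, under every library of the other stages, and leptotene library 2 lies below the other leptotene libraries in every class.

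H1 differed most between pachytene and leptotene. Averaged over animals, the 5 H1 rows summed to 56.3 ± 17.8 FPKM in pachytene and 2184 ± 1769 FPKM in leptotene total RNA (SD, n = 2 and 3 animals), 38.8-fold lower in pachytene cells and 43.6-fold lower without leptotene library 2. The H2A sum was 542 ± 163 FPKM in pachytene and 2440 ± 1748 FPKM in leptotene cells, 4.5-fold lower (5.01-fold without that library), and this was the class with the smallest ratio. The H2B sum was 225 ± 1.99 FPKM in pachytene and 2732 ± 1691 FPKM in leptotene cells, 12.1-fold lower (14.3-fold without it). For H3 the sums were 64.6 ± 10.8 FPKM in pachytene and 614 ± 215 FPKM in leptotene cells, 9.51-fold lower (11-fold without it). The H4 sum was 579 ± 94.7 FPKM in pachytene and 5655 ± 3022 FPKM in leptotene cells, 9.76-fold lower (11.1-fold without it). The leptotene libraries spread widely, with 23312 FPKM over all classes in library 3 and 2264.8 FPKM in library 2. One animal, IND4, gave both stages, and within it the sum over all classes was lower in pachytene than in leptotene cells by a log2 ratio of -3.82, with -6.59 for H1 and -2.76 for H2A. The leptotene library of IND4 was library 3. Its 6 spermatogonial marker genes summed to 103 FPKM, against 25.1 to 80.5 FPKM in the other leptotene and 118 to 160 FPKM in spermatogonial libraries. For 6 markers of meiotic entry and leptotene the sum was 180 FPKM, against 108 to 230 FPKM in the other leptotene libraries. Spermatogonial libraries had 67.7 to 130 FPKM of these. The part of this in the histone values was not tested.

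Most single histone genes were lower in pachytene than in leptotene total RNA. Of the 63 rows that could be tested, 53 fell, 3 rose and 7 did not pass the test (limma on log2(FPKM + 1) with 1 value per animal and stage, Benjamini-Hochberg adjusted p under 0.05 over 19202 genes). Over all genes tested, 17.7% fell and 22.4% rose in this comparison. The median log2 change of the 63 rows was -3.37, against -0.07 over all genes, and it was -3.57 for H1, -3.76 for H2A, -3.10 for H2B, -3.40 for H3 and -2.69 for H4. All 5 H1 rows and all 13 H4 rows fell, as did 14 of 18 H2A, 13 of 17 H2B and 8 of 10 H3 rows. Without leptotene library 2, 53 fell and 4 rose, against 24.7% and 28.8% of all genes. The 3 rows not tested were Hist2h2aa1;Hist2h2aa2, listed at 0 in every library, Hist1h2br;Hist1h2bq and Hist2h3b. On the FPKM level, 31 of the 66 rows averaged at least 100 FPKM in leptotene cells and 5 in pachytene cells, and the median row had 4.87 FPKM in pachytene and 81.4 FPKM in leptotene cells.

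**Figure D2:**
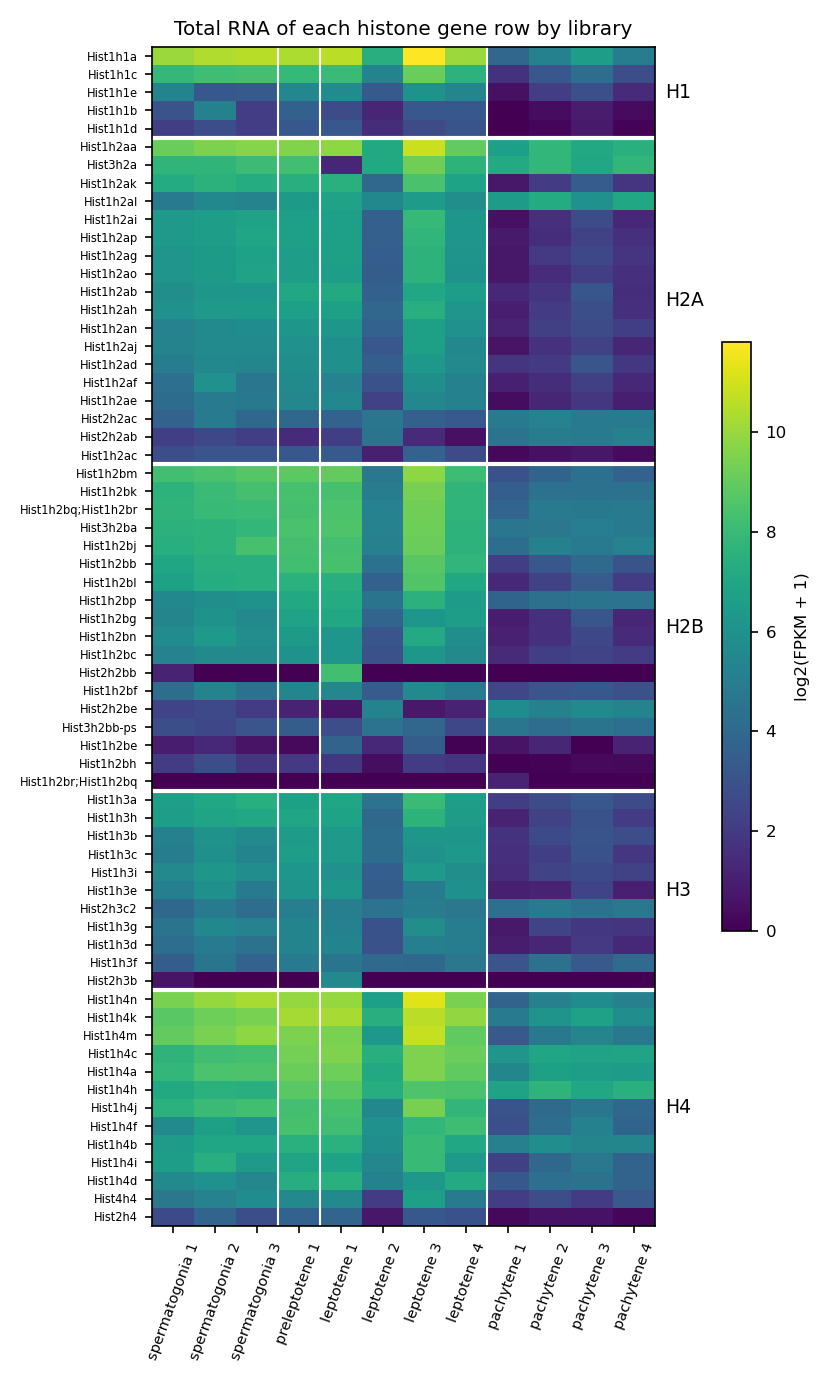
Total RNA of each histone row with a value above 0 in any library, as log2(FPKM + 1), with rows grouped by class and 1 column per library in stage order. Most rows are low in the 4 pachytene columns and lower in leptotene library 2 than in the other leptotene columns, and Hist2h2be, Hist2h2ab and Hist2h2ac are higher in both.

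Hist1h1a (chr13:23763666-23764406, plus strand), which encodes a linker histone abundant in the testis, was the most abundant member in spermatogonia, preleptotene and leptotene cells. It had 14.1, 35.6, 94.3 and 31.3 FPKM in the pachytene libraries and 1511, 176, 3579 and 1048 FPKM in the leptotene libraries. Even leptotene library 2 was above the highest pachytene library. The change was a log2 of -5.11 ± 0.68 (SE, adjusted p = 0.0031). Hist1h1c, another somatic-type H1 gene, had 2.36, 8.37, 18.5 and 6.20 FPKM in pachytene and 261, 39.2, 564 and 195 FPKM in leptotene cells, a log2 change of -4.78 ± 0.62 (adjusted p = 0.0031). Hist1h1a took 74.5 to 83.2% of the H1 sum in pachytene and 78.8 to 81.8% in spermatogonial libraries, so the make-up of the class was similar in these stages. Pachytene library 3, the highest of its stage for both genes, also had the highest sum of 6 spermatogonial marker genes, 15.4 FPKM of a range that began at 1.64 FPKM in that stage, and the part of this in the H1 values was not tested.

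Among the H2A genes, most copies on chromosome 13 fell and a few rows did not pass the test. Hist1h2ak had 0.694, 3.22, 9.70 and 2.42 FPKM in pachytene and 178, 14.5, 344 and 116 FPKM in leptotene cells, a log2 change of -5.0 ± 0.66 (adjusted p = 0.0031). Hist1h2aa, which encodes the testis H2A variant TH2A, fell less: it had 99.2, 224, 139 and 180 FPKM in pachytene and 899, 145, 1844 and 499.5 FPKM in leptotene cells, a log2 change of -2.17 ± 0.63 (adjusted p = 0.025). Here leptotene library 2 lay within the pachytene range, and the call ended without spermatogonial IND1 or either pachytene animal, with no filter and with spike-in scaling. Hist3h2a had 150, 228, 129 and 215 FPKM in pachytene and 1.40, 141, 603 and 197 FPKM in leptotene cells, and Hist1h2al had 92.6, 151, 61.7 and 129 FPKM in pachytene and 112, 44, 91.2 and 56 FPKM in leptotene cells. Neither passed the test, with log2 changes of 0.44 ± 1.17 and 0.53 ± 0.38 and adjusted p-values of 0.78 and 0.30. Together Hist1h2aa, Hist1h2al and Hist3h2a took 73.2 to 86.0% of the H2A sum in pachytene and 49.3 to 53.2% in spermatogonial libraries. Hist3h2a shares its annotated start with Trim17, and how reads were split between overlapping genes is not given in the sources used here.

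The H2B genes were led by Hist1h2bm and Hist1h2bk, core histone genes of the chromosome 13 cluster. Hist1h2bm (chr13:21722044-21722567, plus strand) had 6.87, 13, 19 and 12.2 FPKM in pachytene and 508, 25.5, 900 and 283 FPKM in leptotene cells, a log2 change of -4.57 ± 0.71 (adjusted p = 0.0032). For Hist1h2bk the values were 10.8, 20.4, 20.3 and 20.2 FPKM in pachytene and 333, 30.8, 665 and 208 FPKM in leptotene cells, a log2 change of -3.73 ± 0.67 (adjusted p = 0.0043). All leptotene libraries were above all pachytene libraries for both genes. Of H2B rows that did not pass the test, Hist1h2be changed by a log2 of -1.27 ± 0.84 (adjusted p = 0.25), and Hist2h2bb had 299 FPKM in leptotene library 1 and was listed at 0 in every pachytene library and in the other leptotene libraries. Hist2h3b showed the same pattern with 46.8 FPKM in leptotene library 1 and was too low elsewhere to be tested; an antisense transcript, Gm20628, overlaps both genes.

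Among H3 genes, Hist1h3a had 3.54, 5.47, 8.26 and 5.68 FPKM in pachytene and 126, 21.7, 268 and 94.9 FPKM in leptotene cells, a log2 change of -4.09 ± 0.60 (adjusted p = 0.0032). Hist1h3h had 1.19, 3.86, 6.94 and 3.11 FPKM in pachytene and 113, 15, 200 and 91.2 FPKM in leptotene cells, a log2 change of -4.42 ± 0.57 (adjusted p = 0.0031). The groups did not overlap for either gene. In contrast, Hist2h3c2 had 18.9, 26.8, 20.1 and 24.3 FPKM in pachytene and 31.6, 21.4, 30.1 and 24.5 FPKM in leptotene cells, and Hist1h3f had 7.60, 21.2, 8.85 and 16.4 FPKM in pachytene and 23.0, 15.6, 14.6 and 24.9 FPKM in leptotene cells. These H3 rows overlapped between the stages and did not pass the test, with log2 changes of -0.25 ± 0.31 (adjusted p = 0.55) and -0.58 ± 0.41 (adjusted p = 0.29). They took 39.4 to 65.9% of the H3 sum in pachytene and 5.37 to 8.17% in spermatogonial libraries.

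**Figure D3:**
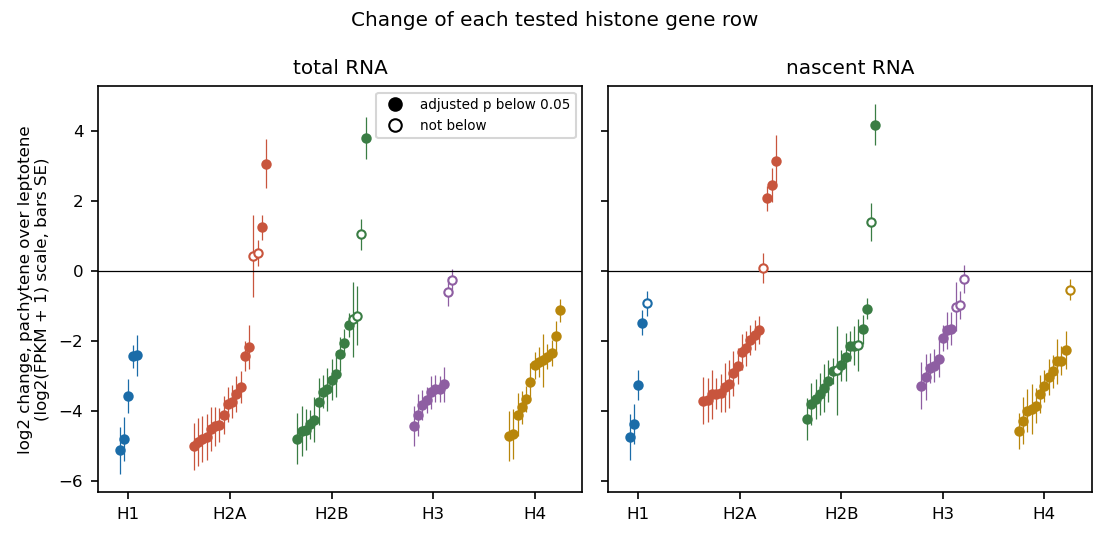
Log2 change of each tested histone row, pachytene over leptotene, with its standard error, by class, in total RNA on the left and nascent RNA on the right; filled points passed the adjusted p threshold of 0.05. In total RNA 53 filled points lie below 0 and 3, Hist2h2be, Hist2h2ab and Hist2h2ac, above 0; in nascent RNA 51 lie below and 4, these and Hist3h2a, above.

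All 13 H4 rows fell, over a wide range of sizes. Hist1h4n had 12.7, 34.3, 53.0 and 34.1 FPKM in pachytene and 987, 102, 2416 and 682 FPKM in leptotene cells, a log2 change of -4.71 ± 0.71 (adjusted p = 0.0032). Its coding sequence is identical to that of Hist1h4m (log2 change -4.64 ± 0.71), so the split of reads between these copies is uncertain and they are best read together. Hist1h4k had 29.0, 69.1, 107 and 53.6 FPKM in pachytene and 1213, 172, 1531 and 957 FPKM in leptotene cells, a log2 change of -3.88 ± 0.48 (adjusted p = 0.0031). At the other end, Hist1h4h had 111, 203, 134 and 181 FPKM in pachytene and 456, 163, 381 and 345 FPKM in leptotene cells, a log2 change of -1.11 ± 0.33 (adjusted p = 0.028). Hist1h4h thus took 19.4 to 32.8% of the H4 sum in pachytene and 3.97 to 5.34% in spermatogonial libraries, with the pachytene levels overlapping those of spermatogonia.

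The genes that rose in pachytene cells lie side by side on chromosome 3. In mm10 coordinates Hist2h2ab is at chr3:96219865-96220308 (plus strand), Hist2h2ac at chr3:96220361-96220880 (minus strand) and Hist2h2be at chr3:96221119-96223738 (plus strand). Hist2h2ab and Hist2h2ac encode H2A and Hist2h2be encodes H2B. With leptotene library 2 included, 22.4% of all genes rose and 17.7% fell. Of the 6 tested rows of this cluster 3 rose and 1 fell, whereas in the 2 large chromosome 13 clusters 23 of 23 and 27 of 29 tested rows fell and none rose. The direction of all 3 held in every alternative run, but the number of calls did not: Hist2h2ab did not pass without either pachytene animal (log2 changes of 3.29 without IND2 and 2.86 without IND4), and Hist2h2ac did not pass without either pachytene animal or leptotene IND3 or IND4 (1.06 to 1.39). Hist2h2be passed in each of these.

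Hist2h2be had 51.8, 35.1, 48.9 and 38.8 FPKM in the pachytene libraries and 0.648, 38.6, 0.763 and 1.23 FPKM in the leptotene libraries. Leptotene library 2 lay within the pachytene range, and the other leptotene libraries were far below it. The log2 change was 3.80 ± 0.60 (adjusted p = 0.0032), and 4.56 ± 0.26 without leptotene library 2. Hist2h2ab had 21.4, 30.2, 27.0 and 35.4 FPKM in pachytene and 3.59, 22.2, 1.77 and 0.423 FPKM in leptotene cells, a log2 change of 3.08 ± 0.70 (adjusted p = 0.0096) and 3.47 ± 0.47 without library 2. The antisense transcript Gm15444 overlaps the start of Hist2h2ab and averaged 2.83 FPKM in pachytene and 0.447 FPKM in leptotene libraries. Hist2h2ac had 27.1, 37.2, 27.6 and 29.2 FPKM in pachytene and 12, 23.6, 11.3 and 8.80 FPKM in leptotene cells, with no overlap, and its log2 change was 1.26 ± 0.36 (adjusted p = 0.023). With the animal as a block the change of Hist2h2ac was 1.46 ± 0.75 and no longer passed (adjusted p = 0.18). Hist3h2bb-ps, a processed pseudogene on chromosome 11, had 23.7, 17.8, 22.5 and 19.1 FPKM in pachytene and 5.94, 21.7, 14.1 and 4.88 FPKM in leptotene cells, and passed only without leptotene library 2 (1.35 ± 0.42, adjusted p = 0.030).

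**Figure D4:**
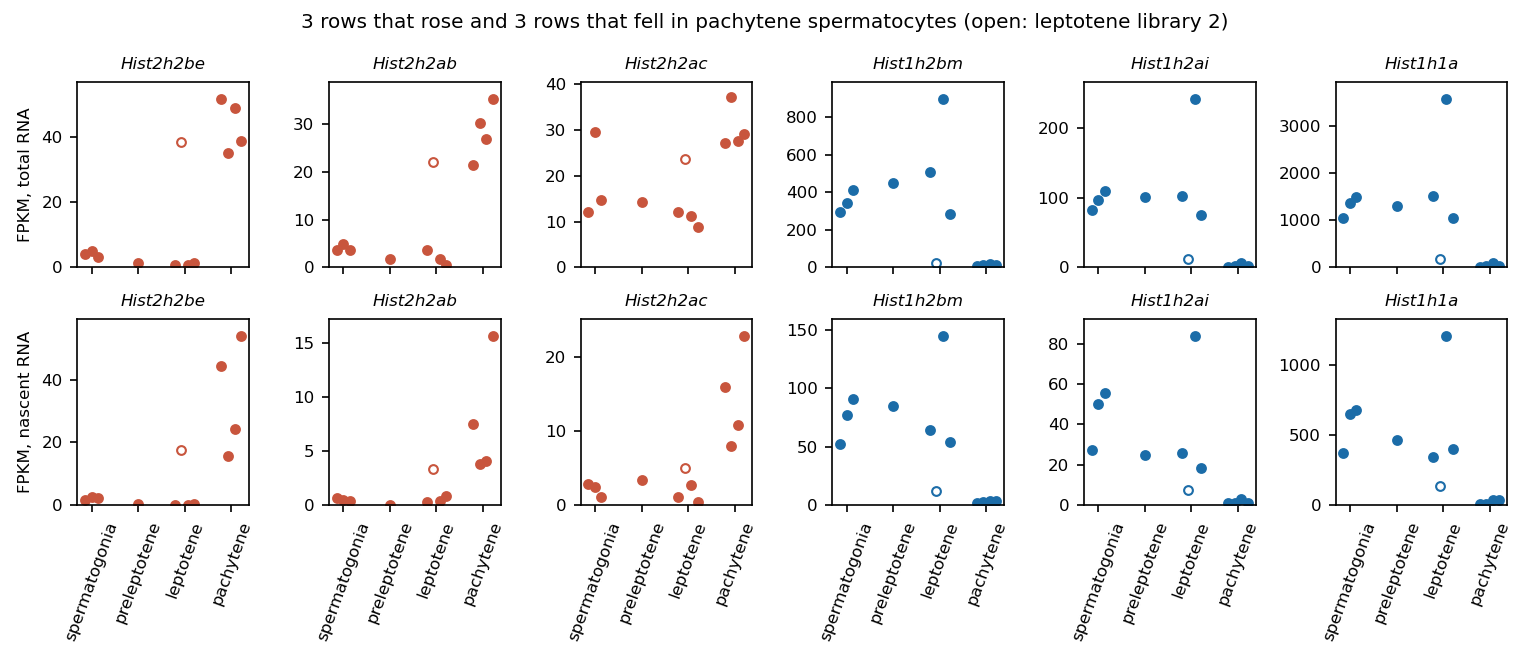
FPKM (linear axes from 0, scaled per panel) of Hist2h2be, Hist2h2ab, Hist2h2ac, Hist1h2bm, Hist1h2ai and Hist1h1a by stage, total RNA above and nascent RNA below; each point is a library, open points are leptotene library 2. The first 3 genes are higher in pachytene than in leptotene libraries 1, 3 and 4, the last 3 are lower, and leptotene library 2 lies towards the pachytene values in all 6.

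The promoters of these genes were compared with those of genes that fell, using the 250 bases before the RefSeq start (GRCm38.p6, the assembly behind mm10). The first pair below rose in pachytene cells and the second pair fell. Capitals mark the TATA box (TATAAA), the CCAAT box (CCAAT) and the octamer (ATTTGCAT) on either strand. A CCAAT box on the other strand is printed as ATTGG, and the octamer of Hist2h2ac lies on the other strand and is printed as ATGCAAAT.
Hist2h2ab (chr3:96219635-96219884, plus strand): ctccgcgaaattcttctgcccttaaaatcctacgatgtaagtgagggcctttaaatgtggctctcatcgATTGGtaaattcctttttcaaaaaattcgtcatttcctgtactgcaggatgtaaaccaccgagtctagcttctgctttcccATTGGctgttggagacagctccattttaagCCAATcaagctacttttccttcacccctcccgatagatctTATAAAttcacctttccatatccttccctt
Hist2h2ac (chr3:96220881-96221130, minus strand): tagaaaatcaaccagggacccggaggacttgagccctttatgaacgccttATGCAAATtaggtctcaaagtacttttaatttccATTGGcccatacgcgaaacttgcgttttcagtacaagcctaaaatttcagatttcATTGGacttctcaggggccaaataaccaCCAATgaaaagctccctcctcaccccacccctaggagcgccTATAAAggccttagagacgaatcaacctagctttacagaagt
Hist1h2bm (chr13:21721794-21722043, plus strand): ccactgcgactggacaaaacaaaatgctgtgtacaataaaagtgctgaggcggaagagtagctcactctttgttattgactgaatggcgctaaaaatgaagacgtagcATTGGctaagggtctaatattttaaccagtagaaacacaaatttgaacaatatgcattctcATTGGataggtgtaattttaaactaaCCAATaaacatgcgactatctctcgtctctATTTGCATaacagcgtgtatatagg
Hist1h1a (chr13:23763418-23763667, plus strand): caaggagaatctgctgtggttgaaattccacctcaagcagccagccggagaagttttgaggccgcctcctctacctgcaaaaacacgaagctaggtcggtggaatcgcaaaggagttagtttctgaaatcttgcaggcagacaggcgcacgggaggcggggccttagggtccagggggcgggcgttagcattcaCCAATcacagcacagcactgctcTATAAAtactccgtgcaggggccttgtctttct
Hist2h2be has no entry in the promoter table, but its start lies inside the window shown for Hist2h2ac, from which it is read the other way. Hist2h2ab has a TATA box at -30 and CCAAT boxes at -181, -100 and -70 from the start, and Hist2h2ac has a TATA box at -42, CCAAT boxes at -166, -111 and -83 and an octamer at -200. That octamer also lies upstream of the Hist2h2be start, on the strand of Hist2h2be. Which of these genes it acts on was not tested. The falling gene Hist1h2bm has CCAAT boxes at -142, -81 and -55 and an octamer at -25, and Hist1h1a has a TATA box at -33 and a CCAAT box at -56. All 4 windows hold a CCAAT box. In windows of 300 bases (250 before and 50 after the start), TATAAA was in 57.6% of the 59 histone promoters with an entry and in 13.6% of all 32851 promoters, CCAAT in 84.7 and 37.4%, and ATTTGCAT in 22% and 1.74%. The CCAAT box was in every H1, H2A, H2B and H3 promoter and in 3 of 12 H4 promoters, and the octamer was in 7 of 18 H2A and 6 of 15 H2B promoters and in none of the other classes. Windows of neighbouring H2A and H2B genes that are read in opposite directions can overlap, so the same octamer can count in both classes.

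The comparison of pachytene cells with spermatogonia shares the pachytene libraries with the one above. In total RNA 52 of 63 rows fell and 4 rose, against 29.7% and 23.1% of all genes tested, and the median log2 change was -3.15 (all genes -0.14). The class sums were 29.8-fold lower in pachytene cells for H1, 3.54-fold for H2A, 8.52-fold for H2B, 8.36-fold for H3 and 6.55-fold for H4. Hist2h2be rose again, with a log2 change of 3.19 ± 0.66 (adjusted p = 0.0040), as did Hist2h2ab with 2.57 ± 0.77 (adjusted p = 0.021), whose call ended with no filter, with a pseudocount of 0.1 and without any 1 of the spermatogonial or pachytene animals. Spermatogonia had 4.16, 5.00 and 3.21 FPKM of Hist2h2be and 3.56, 4.94 and 3.61 FPKM of Hist2h2ab. Hist1h2al rose by 1.46 ± 0.42 (adjusted p = 0.017) and Hist3h2bb-ps by 1.53 ± 0.48 (adjusted p = 0.026), but with the animal as a block only Hist2h2ab and Hist2h2be passed among rises (47 rows fell, and 14.4% of all genes rose and 17.2% fell) and the adjusted p-values of the pseudogenes were 0.29 and 0.64. Hist2h2ac had 12, 29.4 and 14.7 FPKM in spermatogonia and did not pass here (0.81 ± 0.40, adjusted p = 0.11). Hist1h4h was the H4 row that did not fall, with a log2 change of -0.13 ± 0.36 (adjusted p = 0.78).

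Between leptotene cells and spermatogonia few histone rows passed the test. In total RNA 1 of 63 rows rose and none fell, where 0.286% of all genes rose and 9.52% fell. At an unadjusted p under 0.05, 6 rows were higher and 0 lower, against 3.85% and 17.9% of all genes. The summed histone RNA was 13626 ± 8427 FPKM in leptotene cells and 9844 ± 1542 FPKM in spermatogonia, 1.38-fold higher (1.58-fold without leptotene library 2), which is within the spread between leptotene libraries. In the animals that gave both stages, the log2 ratio of leptotene to spermatogonial sums was -0.45 in IND1, whose leptotene libraries are 1 and 2, and 0.13 in IND3. The negative ratio in IND1 rests on library 2. Its leptotene library 1 had 13697 FPKM and its spermatogonial library 10935 FPKM, so that without library 2 the leptotene sum was the higher in both animals. The gene that rose was the H4 gene Hist1h4f (chr13:23551258-23551648, minus strand). It had 293, 61.9, 221 and 279.7 FPKM in leptotene cells and 48.5, 103 and 71.1 FPKM in spermatogonia, so that library 2 lay within the spermatogonial range and the others above it. Its log2 change was 1.5 ± 0.37 (adjusted p = 0.036) and 1.88 ± 0.21 without leptotene library 2 (adjusted p = 0.0035). With the animal as a block it was 1.44 ± 0.57 and did not pass (adjusted p = 0.13), and the call also ended when either spermatogonial animal, leptotene animals IND3 or IND4, or either pachytene animal was left out. It ended too with a pseudocount of 5, no filter, each library as a replicate, spike-in scaling or equal sums.

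Without leptotene library 2, 5 rows rose and 1 fell, where 0.79% of all genes rose and 11.4% fell. The median log2 change of the 63 rows was then 0.50 (all genes -0.13). All leptotene libraries left were above all spermatogonial libraries in 19 rows and below them in 1, against 10.5% and 28% of all genes. The risen rows were Hist1h1e (1.88 ± 0.34), Hist1h4c (1.28 ± 0.25), Hist1h4f, Hist1h4h (1.22 ± 0.25) and Hist1h4k (1.03 ± 0.26), of which 4 are H4 genes, with adjusted p-values of 0.0035 to 0.043. The fallen row was Hist2h2be (-1.38 ± 0.26, adjusted p = 0.017). Hist1h4k, for example, had 1213, 1531 and 957 FPKM in leptotene libraries 1, 3 and 4 and 446, 588 and 685 FPKM in spermatogonia. The make-up of the H4 sum differed between stages. The copies Hist1h4m and Hist1h4n together took 43.6 to 48.6% of the H4 sum in spermatogonia, 29.8% in preleptotene, 16.6 to 45.5% in leptotene (26.6 to 45.5% without library 2) and 6.36 to 13.6% in pachytene cells. Hist1h4c, Hist1h4d, Hist1h4f, Hist1h4h and Hist1h4k together took 29.8 to 32.8% in spermatogonia, 48.5% in preleptotene, 32.3 to 55.9% in leptotene (32.3 to 52% without library 2) and 59.3 to 66.5% in pachytene cells. These 5 copies were grouped after their values were seen, and the shares are a description with no test. Coding sequences of H4 genes are 85.3 to 100% identical, and 93.9% between Hist1h4f and Hist1h4k.

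**Figure D5:**
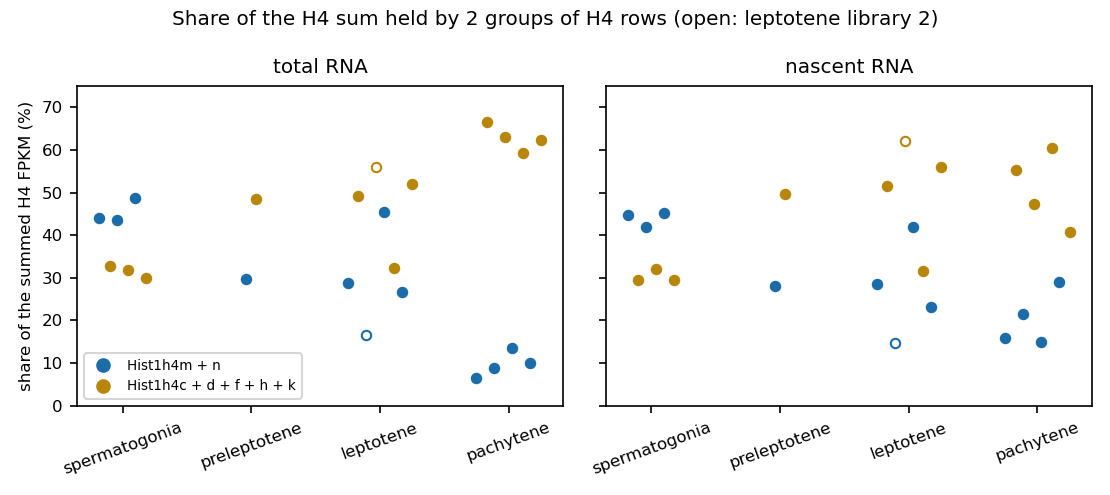
Share of the summed H4 FPKM (percent) by stage and library, taken by Hist1h4m and Hist1h4n and by Hist1h4c, Hist1h4d, Hist1h4f, Hist1h4h and Hist1h4k, in total and nascent RNA; open points are leptotene library 2. In total RNA the first share is highest in spermatogonia (43.6 to 48.6%) and lowest in pachytene cells (6.36 to 13.6%), and the second is highest in pachytene cells (59.3 to 66.5%).

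The stage of the last DNA synthesis, preleptotene, was represented by 1 library from 1 animal, so there is no replicate check on its values. In total RNA, 37 of the 63 tested rows (58.7%) were above all spermatogonial libraries and 3 (4.76%) below, against 24.8% and 44.3% of all genes tested. Among tested rows, 12 of 17 H2B (70.6%) and 8 of 13 H4 (61.5%) were above all spermatogonial libraries, and the H4 share was near that of all 63 rows. Against leptotene, 8 of 63 rows (12.7%) were above all libraries and 0 below, where 14.7% and 10.3% of all genes were, so the share above was near that of all genes. Against pachytene, 56 rows (88.9%) were above and 4 (6.35%) below, where 44% and 38.4% of all genes were. Hist1h4f had 327 FPKM in the preleptotene library, above all 11 other libraries of total RNA. The H4 sum was 5690 FPKM in preleptotene and 3794 ± 725 FPKM in spermatogonia (n = 2 animals). In nascent RNA, 25 of 64 tested rows (39.1%) were above all spermatogonial libraries and 7 (10.9%) below, where 36.3% and 36% of all genes were, so the share above was near that of all genes. It was 29.4% for H2B and 46.2% for H4.

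Nascent histone RNA, captured after 3 h of EU labelling, gave the same order of stage means. Over all 66 rows it summed to 1784, 2963 and 3143 FPKM in spermatogonia, 2883 FPKM in preleptotene, 2128, 776, 5221 and 2378 FPKM in leptotene and 227, 202, 346 and 426.5 FPKM in pachytene cells. Pachytene cells were below the other stages in all libraries. Leptotene library 3 had the highest and library 2 the lowest leptotene sum, as in total RNA. The labels name different animals for the RNA types, and whether same-numbered libraries are independent was not tested. Of 64 tested rows, 51 fell and 4 rose in pachytene against leptotene cells (all genes 15.4% and 15.8%), with a median log2 change of -2.69 (all genes -0.27). Without leptotene library 2, 55 fell and 4 rose (all genes 22% and 17.7%). These counts depend on the scaling: with the 5S-corrected values described below 4 rows fell and 5 rose (all genes 1.72% and 31.1%), and with spike-in scaling no gene passed. Against spermatogonia, 50 fell and 3 rose (all genes 27.9% and 15.6%), 43 fell and 4 rose with the 5S-corrected values, and none passed with spike-in scaling. The class sums in pachytene relative to leptotene cells were 28.9-fold lower for H1, 5.55-fold for H2A, 5.87-fold for H2B, 8.72-fold for H3 and 14.7-fold for H4 (30.7-, 6.08-, 6.27-, 9.34- and 15.8-fold without leptotene library 2), but in the authors' 5S-corrected table the H2A and H2B ratios turned round, to log2 values of 0.32 and 0.21. That table covers 9 of the 12 nascent libraries and multiplies each by a constant. In it the all-class sums were 5239 ± 3218 in spermatogonia, 1347 in preleptotene, 1149 ± 144 in leptotene and 699 ± 423 in pachytene cells, in corrected units.

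Hist1h1a had 8.38, 7.91, 35.8 and 31.1 FPKM in the nascent RNA of pachytene cells and 343, 135, 1204 and 399.8 FPKM in that of leptotene cells, a log2 change of -4.73 ± 0.65 (adjusted p = 0.00081). Hist1h4k had 3.5, 3.6, 25.5 and 9.10 FPKM in pachytene and 187, 75.2, 284 and 251 FPKM in leptotene cells, a log2 change of -4.57 ± 0.52 (adjusted p = 0.00055). In both genes every leptotene library was above every pachytene library. The chromosome 3 genes rose here too. Hist2h2be had 44.2, 15.5, 24.3 and 53.9 FPKM in pachytene and 0.0519, 17.5, 0.0494 and 0.141 FPKM in leptotene cells, a log2 change of 4.2 ± 0.57 (adjusted p = 0.00081), with leptotene library 2 again within the pachytene range. It took 32.5 to 58.5% of the nascent H2B sum in pachytene cells and 0.452 to 0.628% in spermatogonia. Hist2h2ab had 7.42, 3.77, 4 and 15.6 FPKM in pachytene and 0.295, 3.31, 0.314 and 0.83 FPKM in leptotene cells (2.09 ± 0.36, adjusted p = 0.0017). Hist2h2ac had 15.9, 7.99, 10.9 and 22.9 FPKM in pachytene and 1.09, 4.98, 2.62 and 0.363 FPKM in leptotene cells (2.47 ± 0.49, adjusted p = 0.0037; with the animal as a block 2.02 ± 0.87, adjusted p = 0.084), and its call also ended without either pachytene animal.

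Hist3h2a rose in nascent RNA and not in total RNA. It had 27.4, 22.6, 15.9 and 47.8 FPKM in pachytene and 0.996, 17.0, 1.37 and 0.983 FPKM in leptotene nascent RNA, a log2 change of 3.16 ± 0.74 (adjusted p = 0.0087), or 3.69 ± 0.71 without leptotene library 2 (adjusted p = 0.0045), and the call ended without either pachytene animal. The difference between the RNA types was itself -2.73 ± 1.56, total over nascent, and did not pass (adjusted p = 0.79). In spermatogonia its nascent values were 2.64, 76.0 and 1.48 FPKM, so that the library level varied widely within a stage. Hist1h4f rose in leptotene against spermatogonia in nascent RNA as well, the 1 of 64 rows to do so where 0.696% of all genes rose and 9.9% fell. At an unadjusted p under 0.05, 2 of 64 rows were higher and 0 lower, against 5.94% and 18.2% of all genes, so the share higher was not above that of all genes. Hist1h4f had 55.1, 34.5, 49.6 and 91.1 FPKM in leptotene cells and 7.96, 18.1 and 19.0 FPKM in spermatogonia, with no overlap, and a log2 change of 1.87 ± 0.50 (adjusted p = 0.034), or 1.98 ± 0.46 without leptotene library 2 (adjusted p = 0.028). This call ended when either spermatogonial animal, leptotene animals IND5 or IND7, or either pachytene animal was left out, and with no filter, each library as a replicate, spike-in scaling or the 5S-corrected values. With the 5S-corrected values 15 rows fell and 0 rose in this comparison (all genes 27.2% and 0.461%), and the log2 ratio of the all-class sums was -2.19 in place of 0.13.

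The change in total RNA was then set against the change in nascent RNA in a single fit over all 24 libraries. No row passed in any of the 3 comparisons of 62 tested rows (limma), where 0.00628% of all genes rose and 0.0189% fell for pachytene against leptotene cells and 0% rose and 0.0126% fell for pachytene cells against spermatogonia. At an unadjusted p under 0.05, 1 row was higher and 6 lower in total over nascent RNA for pachytene against leptotene cells, where 5.17% and 1.58% of all genes were. The median difference of the rows was -0.72, against 0.19 over all genes, and by class it was -0.43 for H1, -1.20 for H2A, -0.40 for H2B, -0.94 for H3 and 0.17 for H4. Hist1h4h had the difference with the smallest p, 1.44 ± 0.52 (adjusted p = 0.66). Leptotene library 2 was then left out of total RNA but kept in nascent RNA. In that fit 1.03% of all genes rose and 0.145% fell. Hist1h2ae (-2.45 ± 0.49, adjusted p = 0.036) and the H4 gene Hist2h4 (-2.43 ± 0.44, adjusted p = 0.023) passed. Both had a larger fall in total than in nascent RNA on the log2(FPKM + 1) scale. The added 1 limits the fall of low values. In pachytene cells the median of the 66 rows was 1.27 FPKM in nascent and 4.87 FPKM in total RNA. In nascent RNA Hist2h4 had 0.927 to 1.04 FPKM in the leptotene libraries other than library 2 and 0.0800 to 0.605 FPKM in pachytene libraries. Hist1h2ae had 3.05 to 5.23 FPKM and 0.0179 to 1.24 FPKM in the same libraries. Whether the FPKM values themselves fell more in total RNA was not tested.

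Genes that act in S phase, or that make, process or use histone mRNA, were read from lists for comparison. Of 48 S phase genes, 23 fell and 1 rose in pachytene against leptotene total RNA, with a median log2 change of -1.07 (all genes 17.7% and 22.4%, median -0.07). Without leptotene library 2, 26 fell and 2 rose, where 24.7% of all genes fell and 28.8% rose. The helicase subunits Mcm2 and Mcm4 fell by 2.82 and 3.44 on the log2 scale and the S phase transcription factor E2f1 fell by 2.99 (adjusted p = 0.0031), whereas the polymerase clamp Pcna changed by 0.13 ± 0.32 and did not pass. Of 21 tested genes of histone mRNA transcription and processing, 4 fell and 4 rose, near the shares of all genes, and 5 fell and 6 rose without leptotene library 2. Npat, the activator of these genes, changed by -1.77 ± 0.38 (adjusted p = 0.0082) and Lsm11 by -1.08 ± 0.34 (adjusted p = 0.035), and the Cajal body protein gene Coil rose by 2.5 ± 0.49 (adjusted p = 0.0057). Slbp did not pass, at -0.90 ± 0.79 (adjusted p = 0.38). Of 21 histone chaperone genes 6 fell and 3 rose (all genes 17.7% and 22.4%), among them Rbbp7, which fell by 2.99 on the log2 scale. Without leptotene library 2, 9 chaperone genes fell and 6 rose (all genes 24.7% and 28.8%). In the comparison with spermatogonia 25 S phase genes fell and 3 rose, 4 processing genes fell and 5 rose, and 7 chaperone genes fell and 5 rose, where 29.7% of all genes fell and 23.1% rose, so that the processing and chaperone lists did not stand far from all genes. In nascent RNA 20 of 46 tested S phase genes fell and 1 rose in pachytene against leptotene cells (all genes 15.4% and 15.8%), and Npat changed by -2.04 (adjusted p = 0.0063). Without leptotene library 2, 26 of these S phase genes fell and 1 rose (all genes 22% and 17.7%).

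Histone genes that work outside S phase were read from a list in the same way. Of 14 tested replication-independent or testis histone genes, 4 rose and 2 fell in pachytene against leptotene total RNA, with a median log2 change of 0.11, and 4 rose and 3 fell without leptotene library 2. These counts are near the shares of all genes, 22.4% and 17.7%, or 28.8% and 24.7% without that library. The testis linker histone gene Hist1h1t rose by 3.19 ± 0.60 (adjusted p = 0.0048), the macroH2A gene H2afy by 2.27 ± 0.38 (adjusted p = 0.0036) and the H3.3 gene H3f3a by 1.02 ± 0.32 (adjusted p = 0.034). The linker histone gene H1f0 fell by 2.07 on the log2 scale (adjusted p = 0.0036), and the TH2B gene Hist1h2ba, at 0.07 ± 0.50, did not pass. Between leptotene cells and spermatogonia, Gins1 was the S phase gene that rose (1.36 ± 0.31, adjusted p = 0.025), and the linker histone gene H1fx rose by 1.85 ± 0.38 (adjusted p = 0.016).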

How the data were processed

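Total and EU-labelled nascent RNA of sorted germ cells were sequenced, 12 libraries each. The authors deposited FPKM values per gene for both, for which the submitters' processing notes name the aligner STAR (2.5.2a), the assembler StringTie and the build mm10. Which StringTie version, annotation and strand setting were used is not given in the sources used here. They also deposited a 5S-corrected nascent signal for 9 libraries, in which each library's FPKM values are multiplied by 1 constant. Total RNA was depleted of ribosomal RNA and nascent RNA was not, per the labels' protocols. The 92 spike-in rows, 2.49 to 8.19% of summed FPKM in total and 5.01 to 76.5% in nascent libraries, were not tested.

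Libraries were averaged per animal and stage on the log2(FPKM + 1) scale, since the labels name the animal of each library. limma 3.58.1 (R 4.3.3) with a trended variance was fitted to all 4 stages, for genes at 1 FPKM or more in at least 2 libraries, with Benjamini-Hochberg adjustment over all genes. Some animals gave cells of more than 1 stage, and the labels' animal, not the number in the title, pairs the libraries; a fit with the animal as a block was run beside the fit without it. Total and nascent RNA were compared by an interaction term. In each class, the genes to name were the 2 most abundant, up to 2 called genes with the largest change in each direction, every gene called higher and those not tested. Of these, the fallen rows Hist1h2bl and Hist1h2ap are not described, nor is Hist1h2bh, which was not tested in nascent RNA. Other named genes were chosen after their values were seen. The genes and lists were chosen with earlier results of these data known. Other pseudocounts, filters, scalings, replicates and leptotene library 2 were varied. The test was run on simulated data in which every library varied independently, so that run could not show the effect of shared animals. Counts of reads could not be recovered: the share of low values within 0.05 of a whole step was 29.3 to 37.7%. Depth limits are those of counting only. Promoters are from RefSeq (GRCm38.p6) and transcripts and coordinates from GENCODE M21. Sums and figures used Python 3.11.15 with pandas 2.3.3, numpy 2.4.6 and matplotlib 3.10.9.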

Additional observations from a re-analysis of the deposited data

Results flagged for a closer look

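In 5 of 108 groups of 4 libraries, 1 library lay far from the other 3, where chance alone would give about 1 in 20. Leptotene library 2 accounted for 3 of them: Hist2h2be in total RNA (38.6 FPKM, the other leptotene libraries 0.648 to 1.23 FPKM), Hist2h2be in nascent RNA (17.5 FPKM, the others 0.0494 to 0.141 FPKM) and Hist3h2a in nascent RNA (17.0 FPKM, the others 0.983 to 1.37 FPKM). Pachytene library 1 was low for Hist1h2bk in total RNA (10.8 FPKM, the others 20.2 to 20.4 FPKM). Pachytene library 4 was high for the summed H2A rows in nascent RNA (178 FPKM, the others 85.2 to 91.7 FPKM).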

How the results depend on the processing

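The falls in total RNA kept their direction in every setting run, and the count of falls in pachytene cells stayed within 1.5 times. Counts of rises were small and moved. In total RNA, leptotene against spermatogonia, the 1 risen row became 0 with a pseudocount of 5, no filter, the animal block, each library as a replicate, spike-in scaling or equal sums, and 5 risen and 1 fallen without leptotene library 2. Pachytene against leptotene, 3 risen became 5 with spike-in scaling; pachytene against spermatogonia, 4 risen became 2 with no filter or the block. In nascent RNA, leptotene against spermatogonia, 1 risen became 0 with no filter, each library, spike-ins or the 5S table and 5 in its 9 libraries, and 0 fallen became 1 without leptotene library 2, 15 with the 5S table and 2 in its 9 libraries. With spike-in scaling of nascent RNA no gene passed, so the 4 risen and 51 fallen rows (pachytene against leptotene) and the 3 risen and 50 fallen rows (against spermatogonia) became 0. In pachytene against leptotene, 51 fallen became 4 with the 5S values. In pachytene against spermatogonia, 3 risen became 5 in its 9 libraries. Total over nascent, 0 fallen became 2 when leptotene library 2 was left out of total RNA only. The causes were not tested.

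The log2 ratio of all-class sums in total RNA moved from -3.22 to -2.24 (pachytene over leptotene) and from -2.75 to -2.17 (over spermatogonia) with spike-in scaling. In nascent RNA it moved from 0.13 to -2.19 (leptotene over spermatogonia, 5S table), from -3.33 to -4.61 with spike-ins and -0.72 with the 5S table (pachytene over leptotene), and from -3.20 to -4.47 with spike-ins and -2.85 with equal sums (pachytene over spermatogonia). The H2A and H2B ratios reversed to 0.32 and 0.21 with the 5S table. Scaling also moved the median log2 change of all genes: pachytene over leptotene it went from -0.07 to 0.62 with spike-ins in total RNA, and from -0.27 to -0.97 with spike-ins and 0.87 with the 5S table in nascent RNA, where the histone rows' medians were -3.73 and -1.05.

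Leaving out 1 animal at a time gave these lowest and highest values. Total RNA, leptotene against spermatogonia: 0 to 2 risen, 0 fallen, ratio -0.16 to 0.74. Pachytene against leptotene: 1 to 3 risen (1 without either pachytene animal), 44 to 53 fallen, ratio -3.49 to -2.58. Pachytene against spermatogonia: 1 to 5 risen (1 without either spermatogonial animal or pachytene IND4, 2 without pachytene IND2), 42 to 52 fallen, ratio -2.93 to -2.58. Nascent RNA, same order: 0 to 2 risen, 0 to 1 fallen, ratio -0.53 to 0.46; 2 to 5 risen, 31 to 53 fallen (31 without pachytene IND6 or IND8), ratio -3.66 to -2.67; 2 to 4 risen, 34 to 53 fallen, ratio -3.39 to -2.98. Total over nascent stayed at 0.

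With the animal as the replicate block, which leaves 1 residual degree of freedom against 4, total RNA gave 0 risen and 0 fallen, 2 and 53, and 2 and 47 rows in the 3 comparisons, and nascent RNA 1 and 0, 3 and 49, and 3 and 40. Of 76 calls or values of named rows under 1216 alternatives, 135 lost the call and 0 reversed: 42 with spike-ins, 14 with the 5S table, 11 with no filter, 8 with the block and 54 with 1 animal left out among them. The block ended 3 more named calls than the report gives beside a value: Hist2h2ac (nascent) and Hist1h4f (total and nascent) in pachytene against spermatogonia, with adjusted p-values of 0.23, 0.087 and 0.23.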

Other observations

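Gm12260, a row outside the chosen names and annotated as an unprocessed pseudogene at chr11:58961812-58962222, next to the Hist3h2a group, was abundant. Its libraries averaged 2764 FPKM in spermatogonial, 4198 FPKM in leptotene and 107 FPKM in pachytene total RNA. In nascent RNA the averages were 537 FPKM in spermatogonial, 692 FPKM in leptotene and 33.0 FPKM in pachytene libraries. It is not in the class sums.

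Stem-loops of the histone transcripts came in few forms: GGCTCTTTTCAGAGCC in 25 symbols, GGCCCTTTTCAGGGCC in 7 and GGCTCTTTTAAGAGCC in 5.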
